A study of Mus musculus with 6 samples.

Results

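The genes that encode the proteins of the cytosolic ribosome were examined in lineage-negative (Lin-) mouse blood cells, a fraction depleted of cells with mature lineage markers, which the labels call haematopoietic stem and progenitor cells (HSPC). Members were every gene symbol with the form of a ribosomal protein name (Rpl or Rps and a number, with the usual suffixes) together with Rplp0, Rplp1, Rplp2 and Rpsa, and without the Rps6 kinases. This gave 83 members among 18011 gene symbols, 32 of the small and 51 of the large subunit. There were 3 libraries from Stag2 knockout mice, KO1 to KO3, and 3 from wild type mice, WT1 to WT3. Below, values of single samples always stand in that order. The labels give the genotype as Stag2 KO or Stag2 wt alone, and the allele, any driver of the deletion, the age and the sex were not given in the sources used here. Cohesin, of which Stag2 is a subunit, is the ring complex that holds sister chromatids together and forms chromatin loops.

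The ribosome is built from ribosomal RNA and a fixed set of proteins, each needed in equal amounts, so their genes are usually expressed together. Their mRNAs begin with a run of pyrimidines, the terminal oligopyrimidine (TOP) tract, through which growth signals set their translation. In blood, loss of a single copy of several of these genes causes Diamond-Blackfan anaemia, in which red cell production fails, and ribosome production is known to differ between stem cells and dividing progenitors. Most members also have processed pseudogenes elsewhere in the genome, so reads can be shared between near-identical copies, and the levels below are those of the deposited columns.

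To look for this feature, 30 bases around annotated transcription start sites are printed for members on which the results below turn, 5' to 3' from RefSeq (GRCm38.p6), with the start at base 16. Capitals mark a C followed by at least 5 further bases that are each C or T, beginning within 10 bases of the start. Such a run can lie before or after the annotated start, so it need not open the mRNA. The stretch marked in Rps27l ends before the start. Rpl35 is the member that was lower in every class, Rps27 was lower in T/NK cells, and Rpl12 and Rps2 were higher in basophils. Of the paralogues, Rpl22l1 was lower in granulocyte progenitors, and Rps27l in dendritic and early erythroid cells.
Rpl35, chr2:39005117-39005146, minus strand: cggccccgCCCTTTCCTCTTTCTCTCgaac
Rps27, chr3:90213634-90213663, minus strand: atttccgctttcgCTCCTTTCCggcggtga
Rpl12, chr2:32961697-32961726, plus strand: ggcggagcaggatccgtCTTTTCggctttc
Rps2, chr17:24720048-24720077, plus strand: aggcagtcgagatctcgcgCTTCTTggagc
Rpl22l1, chr3:28805493-28805522, plus strand: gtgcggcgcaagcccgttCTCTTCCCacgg
Rps27l, chr9:66946071-66946100, plus strand: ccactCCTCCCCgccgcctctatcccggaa
Such a run was searched for on the transcript's strand. It was found at 1 or more annotated starts of 34 of the 62 members with a sequence (54.8%). The same held for 5910 of all 27025 genes searched (21.9%). Members that rose and members that fell both carried such a run. Rpsa, which rose in basophil/mast cells and monocytes, and Rpl7l1, which rose in monocytes, held none at the starts examined. A second annotated start of Rps27l held none.

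Each cell's transcripts were counted as unique molecular identifiers (UMIs), 1 per captured 3' end, on the 10x Chromium platform (3' chemistry, version 2). After filtering, 23416 of 25636 deposited cells were kept, with 15577988 to 34216558 UMIs per sample, of which 5566788 to 11992834 fell on members. Cells were grouped into 23 clusters without using the members, and 9 marker-defined classes had at least 20 cells in every sample. Several of these (basophil/mast cells, dendritic cells, monocytes and T/NK cells) carry markers of maturing or mature cells, although the labels call the fraction Lin- HSPC. Any 2 libraries shared 11 to 48 cell barcodes. Stag2 itself was at 19.8 to 24.7 CPM (UMIs scaled to a common library total) in knockout and 42.6 to 54.6 CPM in wild type samples, a log2 fold change of -1.04 (SE 0.11, edgeR adjusted p = 0.00054). The 3' count does not show whether those transcripts hold the deletion.

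Over all kept cells the members' summed share of UMIs hardly differed between the genotypes. It was 35.1%, 34.8% and 34.8% in knockout, and 35.7%, 34.5% and 34.2% in wild type samples. The means were 34.9% ± 0.17 (SD, n = 3) and 34.8% ± 0.82 (SD, n = 3), and the wild type samples lay on both sides of the knockout ones. When every cell was weighted equally instead, the mean share per cell was 33.6% ± 0.37 in knockout and 32.2% ± 0.97 in wild type samples (SD, n = 3 each), a difference of 1.37 percentage points, and the groups did not overlap. Among the samples whose title code begins XA, which are the 3 knockout samples and WT1, the share was 0.88 points lower in the knockout samples than in WT1. What the code marks was not given in the sources used here. In sums over all cells, a change in the mix of cell types and a change within cells cannot be told apart, so the classes were examined next.

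Within classes, members took up more of the transcriptome in knockout basophil/mast cells and monocytes and less in knockout T/NK cells and stem cells. Of the 9 classes, 2 had a higher share in every knockout sample than in any wild type sample, 2 a lower share, and in 5 the genotypes overlapped. These sums are descriptions with no test.

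**Figure D1:**
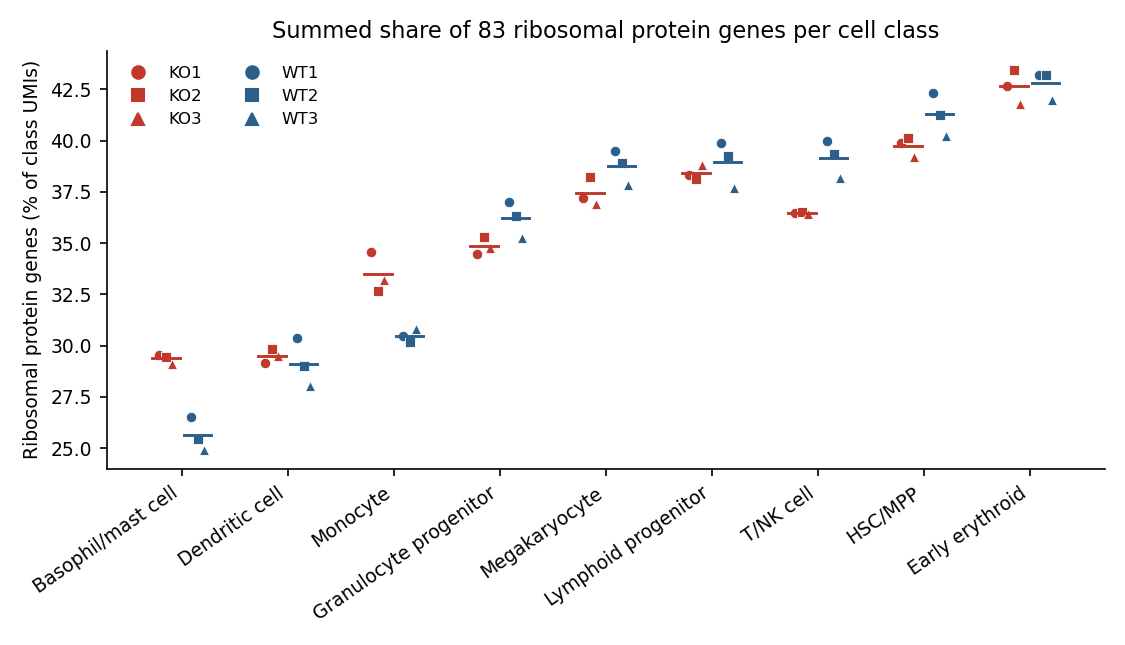
Summed share of the 83 members in each class's UMIs (percent), with classes ordered by the wild type mean. Each symbol is 1 sample, red for knockout and blue for wild type, and bars are group means. Knockout basophil/mast cells at 29.1% to 29.6% lie above wild type at 24.9% to 26.5%, and knockout T/NK cells at 36.4% to 36.5% below wild type at 38.2% to 40.0%.

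Basophil/mast cells, the class with the lowest wild type share, had 29.6%, 29.5% and 29.1% in knockout against 26.5%, 25.4% and 24.9% in wild type samples. All 3 knockout samples were above all 3 wild type samples, by 3.76 points on average. This class consisted of different clusters in the 2 genotypes: the cluster led by Defb40 and Ccl6 held 69.0% to 71.8% of wild type and 0.987% to 1.62% of knockout basophil/mast cells, and the one led by Ccl3 and Sytl3 held 1.13% ± 0.65 and 61.9% ± 2.86 (SD, n = 3 each). Within each of the 4 clusters of the class the knockout samples were higher than the wild type ones, by 1.68 to 3.16 points. Only clusters 4 and 19 held at least 20 cells in every sample. Cluster 0, led by Defb40, rested on 13, 9 and 10 knockout cells. Cluster 3, led by Ccl3, rested on 10, 5 and 22 wild type cells. With the same cluster shares in every sample the means were 28.7% ± 0.31 and 26.6% ± 1.08 (SD, n = 3 each), and the groups still did not overlap. That weighting gives more weight to the few knockout cells of cluster 0 and the few wild type cells of cluster 3. Nor does it make finer makeup equal. At resolution 2.0, a basophil/mast cluster led by Lmo4 and Rnase12 held 295, 132 and 283 knockout and 25, 37 and 63 wild type cells. Another, led by Mcpt8 and Prss34, held 27, 12 and 41 against 89, 162 and 334. The part of such differences in the within-cluster values was not tested.

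Monocytes had a share of 34.6%, 32.7% and 33.2% in knockout and 30.5%, 30.2% and 30.8% in wild type samples, 2.99 points more in the knockout samples with no overlap. Here too the makeup differed. Cluster 10, which is led by histone and cell division genes, made up 72.8% ± 7.41 of knockout and 52.1% ± 6.28 of wild type monocytes (SD, n = 3 each), and the rest was cluster 13, led by Ear2 and Clec4a3. Cluster 10 raised 6 of 14 monocyte markers and cluster 13 raised 10. Mxd3 and Kif23 are among the leading genes of cluster 10. In a finer clustering (resolution 2.0) a cluster led by Mxd3 and Kif23 took the dendritic name, with 11 of 13 markers. Within cluster 10 the knockout share was higher by 2.43 points without overlap, and within cluster 13 the genotypes overlapped. The summed level of 12 granulocyte progenitor markers in this class was 10102 to 14391 CPM in knockout and 4647 to 8340 CPM in wild type samples, with none of the 12 at 0. The median cell held 8252 to 10307 UMIs in knockout and 2190 to 4461 in wild type monocytes. The part of either in the result was not tested. When cells were classed by marker scores without clusters, the difference was -1.02 points with overlapping groups. The groups also overlapped when the clustering was coarser (resolution 0.5, 0.68 points) or finer (resolution 2.0, 1.05 points). With the same shares of clusters 10 and 13 in every sample it was 2.38 points without overlap. The direction therefore depended on how the class was drawn.

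T/NK cells, a class of T lymphocytes and natural killer cells, had 36.5%, 36.5% and 36.4% in knockout and 40.0%, 39.3% and 38.2% in wild type samples. The knockout samples were lower by 2.71 points with no overlap. Natural killer cells (cluster 8, led by Gzma and Ncr1) made up 61.8% ± 5.72 of the knockout class and 32.7% ± 3.48 of the wild type class (SD, n = 3 each). Their own share of member UMIs, 33.0% ± 1.43 in wild type samples, was below that of the T cell clusters 7 and 17 (39.9% ± 1.10 and 48.3% ± 1.71). With the same cluster shares in every sample the difference fell to -0.31 points and the groups overlapped. That value sums differences of opposite sign. The mean share per cell was 33.3% to 33.4% in knockout and 29.7% to 33.1% in wild type natural killer cells, and 35.2% to 37.2% against 37.6% to 39.2% in T cell cluster 7. In shares of summed UMIs the differences were 1.47 and -1.59 points, and the groups overlapped in both clusters. Granulocyte progenitor markers summed to 716 to 837 CPM in knockout and 419 to 656 CPM in wild type T/NK cells, with none of the 12 at 0, and their part in the result was not tested.

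Haematopoietic stem cells and multipotent progenitors (HSC/MPP) had 39.9%, 40.1% and 39.2% in knockout and 42.3%, 41.3% and 40.2% in wild type samples. The knockout mean was lower by 1.54 points, yet KO2 and WT3 lay close together. The groups overlapped when every cell was weighted equally (difference -1.45 points) and in classes from marker scores. Granulocyte progenitors (-1.37 points), megakaryocytes (-1.31), lymphoid progenitors (-0.50), early erythroid cells (-0.16) and dendritic cells (0.37) overlapped between genotypes. The classes therefore lay closer together in the knockout samples: from the lowest to the highest class the share spanned 13.5, 14.0 and 12.7 points in knockout and 16.7, 17.8 and 17.1 in wild type samples. Early erythroid cells had the highest share in all 6 samples.

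Single members were then compared with edgeR's quasi-likelihood test on counts summed per sample, with p-values adjusted over all genes tested. Levels in this part are CPM scaled by TMM factors, which correct for differences in RNA composition. Over all kept cells no member of 83 was higher in the knockout samples, against 3.69% of all 12639 genes, and 2 members were lower, against 7.2% of all genes. At an unadjusted p under 0.05 there were 5 members (the share of all genes is not given here), and DESeq2 also gave no higher and 2 lower members. The members' median log2 fold change was -0.01, beside 0.01 for all genes, and the genotypes did not overlap for 11 members, 13.3% of them, against 29.7% of all genes.

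Rpl35, a large subunit protein near the exit of the tunnel through which the new protein chain leaves, was the member with the most widespread difference. Its gene lies at chr2:39001580-39005624 on the minus strand (GENCODE M21, GRCm38; the build behind the counts was not given in the sources used here). Over all kept cells Rpl35 was at 2395, 2963 and 2262 CPM in knockout and at 3642, 3756 and 4624 CPM in wild type samples. Every knockout sample was below every wild type sample. It fell by 0.66 on the log2 scale (SE 0.12, edgeR adjusted p = 0.0072).

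**Figure D2:**
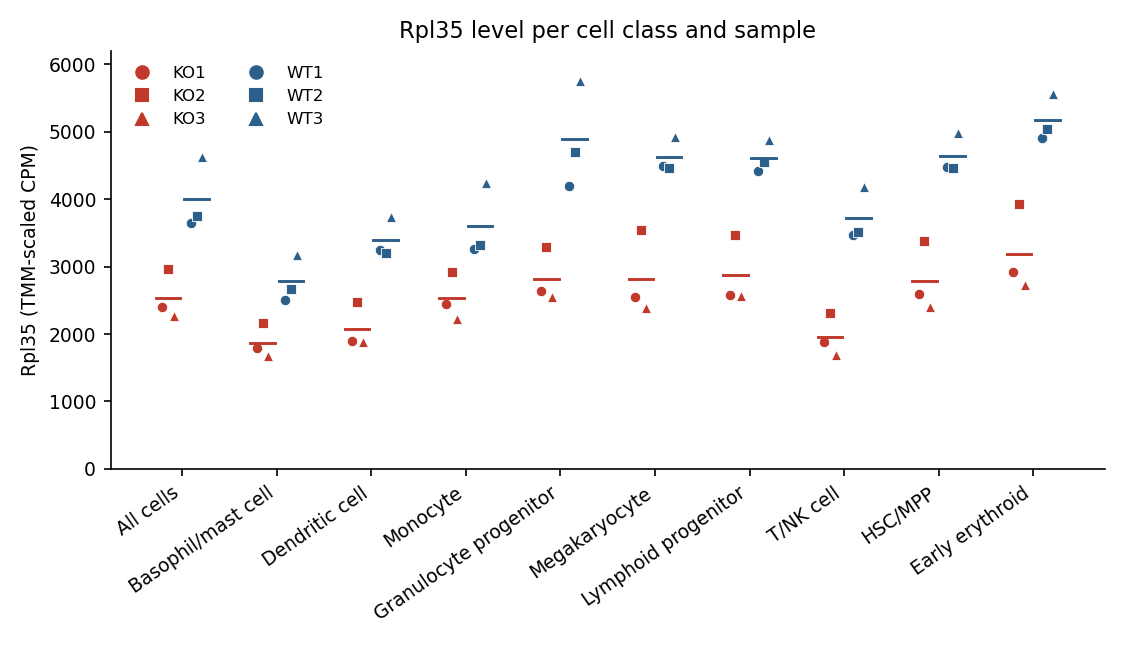
Rpl35 in TMM-scaled CPM over all kept cells and in each of 9 classes, starting from 0. Each symbol is 1 sample, red for knockout and blue for wild type, and bars are group means. In all 9 classes the 3 knockout samples lie below the 3 wild type samples, and KO2 is the highest of the knockout samples.

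Rpl35 fell in all 9 classes, with log2 fold changes from -0.51 in monocytes (SE 0.12, edgeR adjusted p = 0.013) to -0.93 in T/NK cells (SE 0.11, adjusted p = 0.00015). In HSC/MPP it was at 2590, 3382 and 2404 CPM in knockout and at 4472, 4465 and 4976 CPM in wild type samples, a log2 fold change of -0.73 (SE 0.11, adjusted p = 0.00044). In early erythroid cells it was at 2924, 3931 and 2722 CPM against 4911, 5042 and 5561 CPM (log2 fold change -0.70, SE 0.11, adjusted p = 0.00084). The genotypes were apart in these classes too. The pattern also held below the level of classes: in all 17 clusters with at least 20 cells in every sample the knockout samples were below the wild type ones, with ratios of mean CPM between 0.606 and 0.733.

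In the 4 XA samples alone, the 3 knockout samples were below WT1 over all cells (2262 to 2963 against 3642 CPM). With the title prefix as a covariate, a fit in which WT1 alone carries the wild type level, Rpl35 stayed lower but missed the threshold over all cells (log2 fold change -0.52, edgeR adjusted p = 0.093) and in 5 of the 9 classes (basophil/mast cells, dendritic cells, granulocyte progenitors, megakaryocytes and monocytes). In monocytes it also missed it without KO1 (adjusted p = 0.051), KO3 (0.099) or WT3 (0.065). The 6 other measured genes that reach within 200000 bases of Rpl35 did not pass the test: Nr6a1, Wdr38, Arpc5l, Golga1, Scai and Ppp6c had log2 fold changes from -0.27 to 0.23. Wdr38 and Arpc5l overlap Rpl35 on the opposite strand, and whether the counting used strand was not given in the sources used here.

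Besides Rpl35, the member called over all cells was Rpl3l, a paralogue of Rpl3 known from heart and skeletal muscle, named here after its values were seen since it lies below 10 CPM. It had 16, 15 and 12 UMIs in knockout and 35, 69 and 65 in wild type samples over all cells, or 0.459, 0.770 and 0.410 CPM against 2.30, 2.30 and 2.07 CPM. The groups did not overlap, with a log2 fold change of -2.07 (SE 0.27, edgeR adjusted p = 0.0013). Much of it lay in monocyte cluster 13, with 4, 4 and 3 UMIs in knockout and 16, 39 and 42 in wild type samples. That was 41.7, 42.6 and 37.1 CPM against 85.6, 71.9 and 95.1 CPM. The knockout levels rest on these 3 or 4 UMIs per sample. Cluster 13 held 47, 36 and 34 of 4315, 2385 and 3639 knockout cells. In wild type samples it held 88, 248 and 301 of 2412, 4258 and 6407 cells. The part of these cell numbers in the difference over all cells was not tested. In the plasmacytoid-type dendritic cluster 11, led by Siglech, there were 0, 1 and 0 UMIs in knockout and 3, 14 and 6 in wild type samples.

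**Figure D3:**
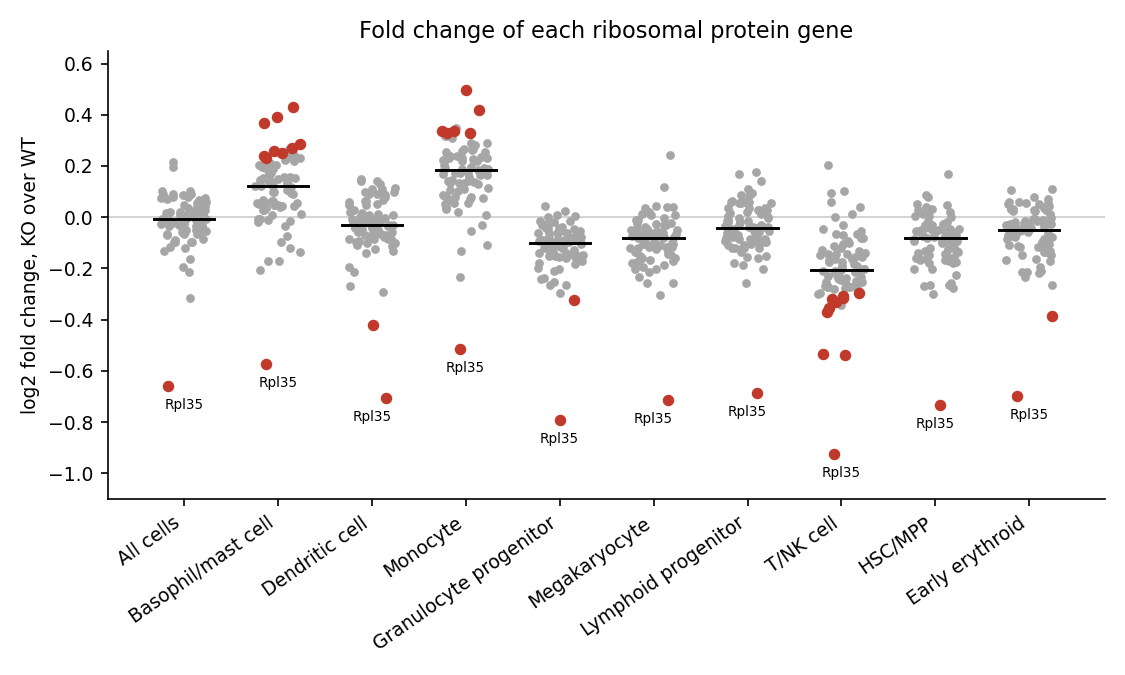
Log2 fold change, knockout over wild type, of each member over all kept cells and in each class. Grey points did not pass the test, red points did (edgeR adjusted p under 0.05), and black bars are medians. Rpl3l and Rpl39l, below 10 CPM over all kept cells, are not drawn. Rpl3l averaged at least 10 CPM in wild type monocytes and had a log2 fold change of -2.47 in that class. Rpl35 is the lowest drawn point in every column, and the medians run from -0.21 in T/NK cells to 0.18 in monocytes.

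In basophil/mast cells 9 of 81 members rose, against 4.08% of all genes, and 1 fell, against 7.5%. The members' median log2 fold change was 0.12, beside 0.01 for all genes, and 67 members were above 0. The genotypes were apart for 40 members (49.4%), against 29.3% of all genes. Rpl12, which forms the base of the ribosomal stalk, was at 1545, 1479 and 1411 CPM in knockout and at 1238, 1165 and 892 CPM in wild type samples. All knockout samples were higher (log2 fold change 0.43, SE 0.10, edgeR adjusted p = 0.012).
Rps2, a small subunit protein at the mRNA entry side, was at 2574, 2453 and 2372 CPM in knockout and 2103, 1721 and 1818 CPM in wild type samples in the same order (0.39, SE 0.08, adjusted p = 0.0052). Rps20, of the small subunit head, had 2645, 2593 and 2547 against 2197, 2081 and 1762 CPM (0.37, SE 0.08, adjusted p = 0.0085). Rpsa, which also goes by the name laminin receptor, had 2142, 2193 and 2154 against 1922, 1806 and 1592 CPM (0.29, SE 0.08, adjusted p = 0.027). None of these 4 overlapped between genotypes.
The other 5 that rose, chosen here after their values were seen, were Rpl36a, Rplp0, Rpl6, Rpl4 and Rpl3, at log2 fold changes of 0.23 to 0.27. Rpl35 was the member that fell. With the same cluster shares in every sample only Rpl35 passed, and the members' median log2 fold change was 0.05; clusters 0 and 3 then rest on as few as 9 and 5 cells in a sample. With the prefix as a covariate no member passed. Leaving out 1 sample gave 3 called members without KO1, 5 without KO2, 4 without KO3 or WT2, 12 without WT3 and 17 without WT1. Summed markers of late neutrophils in this class were 504 to 678 CPM in knockout and 258 to 377 CPM in wild type samples, with none of 13 at 0. They were also higher in all knockout samples in every other class except dendritic cells and granulocyte progenitors, where the groups overlapped. In HSC/MPP, for example, they were at 157 to 355 against 34.0 to 107 CPM. The median basophil/mast cell held 3703 to 4130.5 UMIs in knockout and 2026 to 3132.5 in wild type samples, and with cells of at least 2000 UMIs 2 members rose and 1 fell. The part of the markers in the result was not tested.

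Monocytes had 6 of 82 members higher, against 2.91% of all genes, and 2 lower, against 6.41%. The median log2 fold change was 0.18 for members and 0.02 for all genes, 75 members were above 0, and the genotypes were apart for 46 (56.1%), against 26.8% of all genes. Rps2 was at 4951, 4373 and 4486 CPM in knockout and at 3386, 3029 and 3382 CPM in wild type samples. The knockout samples were all higher (log2 fold change 0.50, SE 0.10, edgeR adjusted p = 0.0031).
Rpl7l1, a paralogue of Rpl7, had 99.6, 105 and 102 CPM in knockout and 68.3, 78.3 and 80.6 CPM in wild type samples (0.42, SE 0.13, adjusted p = 0.048). Rpsa had 3331, 3172 and 3213 against 2644, 2691 and 2355 CPM (0.34, SE 0.10, adjusted p = 0.036), and Rpl10a, which forms the L1 stalk, had 3467, 2953 and 3156 against 2404, 2509 and 2671 CPM (0.34, SE 0.10, adjusted p = 0.042). Rpl4 and Rps4x also rose, both by 0.33 on the log2 scale. Rpl35 and Rpl3l fell, and Rpl3l had the lower log2 fold change of the pair, -2.47.
These calls depended on how the class was drawn. In classes from marker scores no member rose and 4 fell, with log2 fold changes of -0.11 for Rps2, -0.17 for Rpl7l1 and -0.07 for Rpl10a. With the same cluster shares 1 rose and 2 fell. With DESeq2 there were 2 in each direction. Without KO1 or KO3 2 members were called, without WT2 3 and without WT1 or WT3 5.

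In T/NK cells no member of 81 rose, against 1.2% of all genes, and 10 fell, against 1.41%. The members' median log2 fold change was -0.21, beside 0.00 for all genes; 75 members were below 0 and the genotypes were apart for 45 (55.6%), against 18.7% of all genes. After Rpl35, which was at 1882, 2310 and 1683 CPM in knockout and 3471, 3518 and 4174 CPM in wild type samples, the largest changes were in small subunit genes. Rps27, a zinc-binding protein, was at 8701, 12115 and 11300 CPM in knockout and 17300, 14180 and 15098 CPM in wild type samples. They did not overlap (log2 fold change -0.54, SE 0.11, edgeR adjusted p = 0.0092).
Rps29, another zinc-binding protein, was at 6823, 9031 and 7853 CPM against 12403, 10973 and 10985 CPM (-0.54, SE 0.09, adjusted p = 0.0047). Rps19, the gene most often mutated in Diamond-Blackfan anaemia, was at 6908, 6785 and 6639 CPM against 8627, 8077 and 9590 CPM (-0.37, SE 0.08, adjusted p = 0.014). Rpl37a, Rpl37, Rps6, Rps13, Rps25 and Rpl13 also fell, by 0.30 to 0.35 on the log2 scale, and are named after their values were seen.
Leaving out 1 sample gave 3 called members without KO1 or KO3, 5 without KO2 or WT2, 8 without WT1 and 24 without WT3, and the prefix covariate left 3. With the same cluster shares in every sample only Rpl35 passed, and the members' median was -0.06. Within T cell cluster 7 Rps27 was at 9916, 13390 and 13502 CPM in knockout and 16047, 14474 and 14708 CPM in wild type samples (CPM of the summed UMIs), still without overlap.

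In the remaining classes few members were called. Dendritic cells and early erythroid cells each had 2 of 81 members lower, against 4.75% and 3.04% of all genes, and none higher, against 2.86% and 2.66%. These were Rpl35 and Rps27l, the paralogue of Rps27 known as a p53 target. Rps27l was at 501, 488 and 503 CPM in knockout and 686, 617 and 693 CPM in wild type samples in dendritic cells (log2 fold change -0.42, SE 0.09, edgeR adjusted p = 0.011). In early erythroid cells it was at 717, 606 and 712 CPM against 926, 864 and 874 CPM (-0.39, SE 0.10, adjusted p = 0.027). The groups were apart in both classes. In dendritic cells 1 member was called without KO1 or WT3 and 4 without WT1, and in early erythroid cells 1 without KO2, KO3, WT1 or WT3.
Granulocyte progenitors had 2 of 81 lower, against 1.48% of all genes, and none higher, against 0.635%. These were Rpl35 and Rpl22l1, a paralogue that can take the place of Rpl22. Rpl22l1 was at 1804, 1641 and 1617 CPM in knockout and 2065, 2026 and 2246 CPM in wild type samples (-0.32, SE 0.08, adjusted p = 0.048), without overlap. The call was lost in 11 of its 19 alternatives, with the direction kept, and 1 member was called without each of KO1, KO2, KO3, WT2 and WT3.
HSC/MPP, lymphoid progenitors and megakaryocytes had Rpl35 alone lower, 1 of 81 in each (2 in HSC/MPP without KO2), against 1.22%, 1.15% and 0.962% of all genes. None was higher there, against 0.497%, 0.546% and 0.246%. In granulocyte progenitors, HSC/MPP and megakaryocytes most members were nonetheless below 0 (76, 66 and 70 of 81). Their medians were -0.10, -0.08 and -0.08, beside 0.005, -0.004 and 0.0002 for all genes.

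Whether a member's genotype difference in 1 class departed from that in the other classes was tested with limma over 6010 genes. No member of 81 passed in any class. The share of all genes called was 1.36% in basophil/mast cells, 1.48% in monocytes, 0.183% in dendritic cells, 0.0666% in granulocyte progenitors, 0.0333% in T/NK cells, 0.0166% in HSC/MPP and 0.0% in early erythroid cells, lymphoid progenitors and megakaryocytes. At an unadjusted p under 0.05 there were 33 members in basophil/mast cells, 14 in monocytes and 19 in T/NK cells, and 0 to 3 in the others. The share of all genes at that threshold is not given here, so these counts have no baseline. The smallest adjusted p was 0.071, for Rpl12 in basophil/mast cells. The members' median departure was 0.17 in basophil/mast cells, 0.23 in monocytes and -0.19 in T/NK cells, beside 0.002, 0.03 and -0.01 for all genes. In the same order, 78, 79 and 4 of 81 members were above 0.

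The balance between the subunits differed in some cell types. The ratio of small to large subunit UMIs over all cells was 0.815, 0.815 and 0.818 in knockout and 0.818, 0.819 and 0.821 in wild type samples, overlapping. In T/NK cells it was 0.826, 0.829 and 0.829 in knockout and 0.875, 0.863 and 0.867 in wild type samples, lower in all knockout samples. In early erythroid cells it was 0.819, 0.821 and 0.825 against 0.807, 0.807 and 0.806, higher in all knockout samples.

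**Figure D4:**
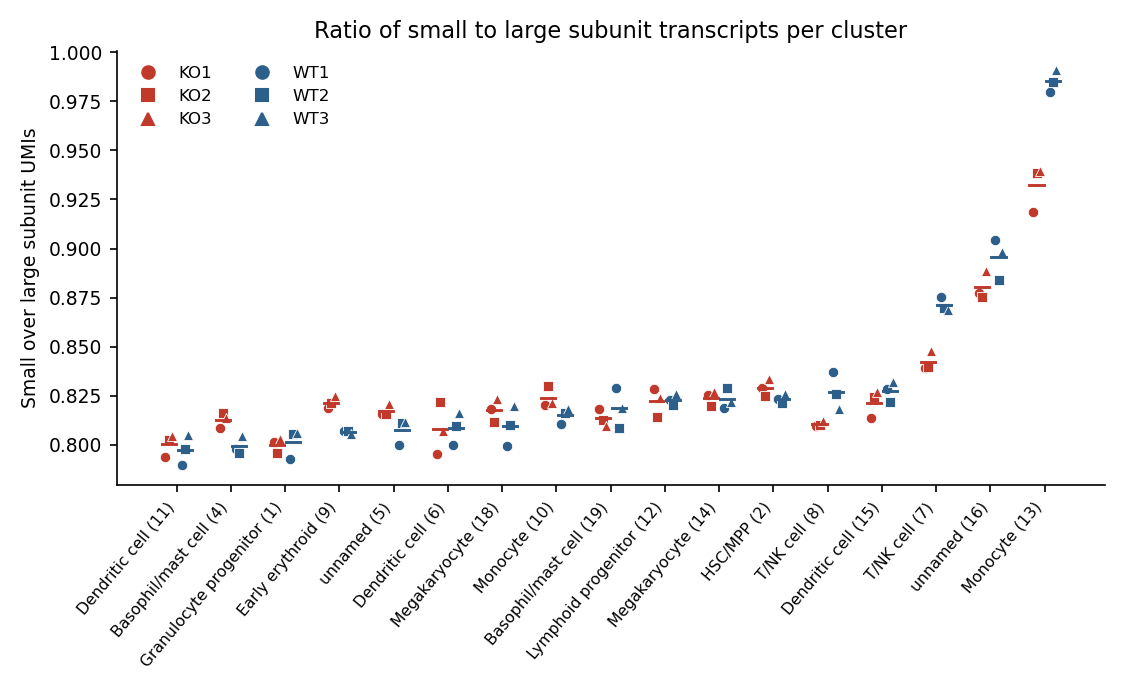
Ratio of summed small subunit to summed large subunit UMIs in the 17 clusters with at least 20 cells in every sample (cluster number in brackets), ordered by the wild type mean. The axis does not start at 0. Each symbol is 1 sample, red for knockout and blue for wild type, and bars are group means. Monocyte cluster 13 has the highest ratios, 0.919 to 0.939 in knockout and 0.980 to 0.991 in wild type samples.

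At equal cluster shares in every sample the T/NK ratio was 0.833 to 0.840 in knockout and 0.855 to 0.865 in wild type samples, a difference of -0.0234, and the groups were still apart. Within clusters it was 0.839 to 0.848 against 0.869 to 0.875 in T cell cluster 7, and 0.809 to 0.812 against 0.818 to 0.837 in natural killer cluster 8. Over the 17 clusters, 4 had higher and 3 lower ratios in all knockout samples. The 2 clusters of the monocyte class went opposite ways, with cluster 13 lower and cluster 10 higher (0.820 to 0.830 against 0.811 to 0.818).

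Paralogue pairs were compared as the share of the paralogue in the pair's UMIs. Rpl22l1 made up 45.9% ± 1.54 of the Rpl22l1 and Rpl22 total in knockout and 48.1% ± 2.33 in wild type samples over all cells (SD, n = 3 each; exact 2-sided permutation p = 0.3, BH-adjusted 0.46). It was lower in every knockout sample than in any wild type sample in granulocyte progenitors (49.6% against 53.7%), HSC/MPP (47.3% against 50.7%), early erythroid cells (43.3% against 46.9%) and monocytes (43.8% against 46.9%), each at an exact p of 0.1, the smallest that 3 against 3 samples can give, and 0.33 after adjustment over 20 comparisons. Rpl22 itself was at 1689 to 1719 CPM in knockout and 1614 to 1721 CPM in wild type samples over all cells, and Rpl22l1 at 1377 to 1556 against 1405 to 1701 CPM.
Rps27l made up 11.0% ± 2.12 of the Rps27l and Rps27 total in knockout and 8.90% ± 1.01 in wild type samples (exact p = 0.3, adjusted 0.46). It was 2.73% ± 0.29 against 1.64% ± 0.28 in T/NK cells, higher without overlap, and 7.58% ± 1.26 against 9.66% ± 0.47 in dendritic cells, lower without overlap. Both had an exact p of 0.1 and an adjusted p of 0.33. Of the 20 comparisons, 6 had groups that did not overlap, and the smallest adjusted p was 0.33 (exact permutation test). For levels of single genes, the genotypes did not overlap for 29.7% of all genes over all cells. That share was 29.3% in basophil/mast cells, 26.8% in monocytes and 18.7% in T/NK cells. The rate for shares of other gene pairs was not tested, so the count of 6 has no baseline of its own.

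Other members with known roles showed no difference past the test over all cells. Values here are TMM-scaled CPM, given as the range in knockout and then in wild type samples. Rps27 was at 4723 to 6672 and 6525 to 7863, and Rps19 at 8200 to 8571 and 7910 to 9729. Rpl5 and Rpl11, which bind Mdm2 when ribosome assembly fails, were at 1320 to 1430 and 1273 to 1418, and at 3868 to 4094 and 4062 to 4246. Rpl3 and Rpl10, near the peptidyl transferase centre, were at 3847 to 4293 and 3610 to 4188, and at 4353 to 4553 and 4480 to 4821.
All of these ranges overlapped. So did those of the X-linked Rps4x (4888 to 5651 and 4698 to 5036) and Rpl39 (4154 to 4908 and 4535 to 5332), and of the stalk protein Rplp0 (6101 to 6710 and 6037 to 6280). Rpsa was at 3076 to 3135 and 2635 to 3093. The 3 members with the highest mean level were Rpl41 (8995 CPM), Rpl32 (8827) and Rps29 (8683), and the 3 lowest were Rpl39l (0.294), Rpl3l (1.38) and Rpl7l1 (93.2). The levels are counts of 3' ends and were not divided by length. Rpl39l had no column in KO2.

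Across cell types, levels of members rose and fell together, with some exceptions. These are CPM of the summed UMIs, described with no test. Of the 81 members at 10 CPM or more, 40 were highest in early erythroid cells, 16 in T/NK cells and 13 in HSC/MPP, and 56 were lowest in basophil/mast cells and 15 in dendritic cells. The median ratio of the highest to the lowest class was 1.70. As parts of the members' own total, the median ratio between classes was 1.33.
Rps27l differed most on that second scale, with a part of the members' total 3.81 times as large in granulocyte progenitors as in T/NK cells, which were its extremes in all 6 samples. In CPM it was at 990 ± 50.8 and 275 ± 40.4 there (SD over 6 samples). Rps27 went the other way, with 12851 ± 2338 CPM in T/NK cells and 5174 ± 601 in granulocyte progenitors. Rpl7l1 was at 129 CPM in granulocyte progenitors and 50.3 in T/NK cells, and Rpl31 at 4150 ± 547 CPM in dendritic cells and 2257 ± 188 in T/NK cells. Rpl22l1 was lowest in basophil/mast cells (781 CPM) and highest in granulocyte progenitors (1890 CPM).

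Some columns differed between libraries and not by genotype. Rpl15 was at 1356, 2041 and 1630 CPM in knockout and 2169, 1473 and 1355 CPM in wild type samples. Rpl27 (1656, 2344 and 2073 against 2545, 1593 and 1562), Rpl6l (1159, 1653 and 1239 against 1773, 1009 and 994) and Rps28 (3707, 6133 and 5346 against 6301, 4320 and 5294) were likewise highest in WT1 and KO2.

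**Figure D5:**
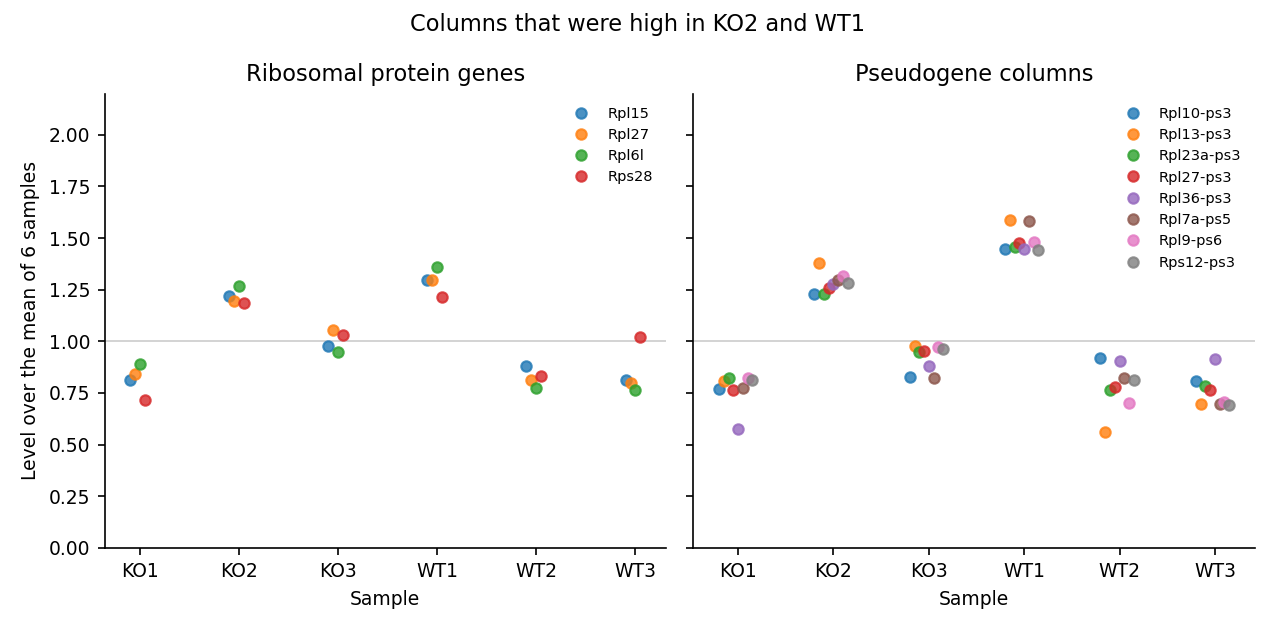
Level of each column divided by its mean over the 6 samples, for 4 members (left) and the 8 pseudogene columns at 10 CPM or more (right), per sample. In every column shown WT1 is highest and KO2 second, 1 sample of each genotype.

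Columns named as ribosomal protein pseudogenes followed the same samples. All 8 with a mean of at least 10 CPM had WT1 and KO2 as their highest samples, as 15 of 81 members and 7.81% of all 7025 genes at that level had. Together the pseudogene columns took up 0.794%, 1.25% and 0.930% of UMIs in knockout and 1.41%, 0.758% and 0.714% in wild type samples. None of these members or of the 8 columns passed the genotype test over all cells. Rpl35 was lower without KO2 and WT1 as well (log2 fold change -0.86, edgeR adjusted p = 0.00063). That fit sets KO1 and KO3, whose title codes begin XA, against WT2 and WT3, whose codes do not. Genotype and title code cannot be told apart in it.

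Members with short transcripts tended to have lower fold changes than long ones. Across the 80 members with an annotated transcript length and at least 10 CPM, Spearman's rho between length and log2 fold change was 0.06 in dendritic cells to 0.42 in lymphoid progenitors, and 0.37 over all cells. In T/NK cells the median was -0.26 for the 26 members under 600 bases and -0.15 for the 23 of 1000 bases or more. Among other genes rho was -0.08 to 0.23 in the classes. The medians of short and long other genes were -0.02 and 0.02 in T/NK cells. In basophil/mast cells they were -0.15 and 0.01, beside 0.11 and 0.15 for members. In dendritic cells they were -0.14 and 0.02, beside -0.03 and -0.02 for members. This gap was wider among members in T/NK cells and monocytes, and wider among other genes in the remaining classes. Members are not independent replicates and share their libraries, so these are descriptions.

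Lists of genes around ribosome production were set beside the members. Over all cells none of 18 translation factors with TOP mRNAs passed; Eef2, Eif4b and Pabpc1 had the smallest p, with log2 fold changes of 0.25, 0.21 and 0.13. In basophil/mast cells, a class whose clusters differ between the genotypes as given above, 4 of the 18 rose, against 4.08% of all genes, and none fell, against 7.5%. Among those that rose were the elongation factors Eef2 (0.54, edgeR adjusted p = 0.0012), Eef1a1 (0.45, adjusted p = 0.0070) and Eef1b2 (0.37, adjusted p = 0.0079). In monocytes 4 rose, against 2.91% of all genes, with Eef1g (0.46) and Eef2 (0.44) at the smallest p. The list medians were 0.15 and 0.20 there.
Ribosome biogenesis factors, which process ribosomal RNA and assemble the subunits, had none of 40 called over all cells, where Ebna1bp2 (0.18), Polr1b (0.22) and Mybbp1a (0.15) had the smallest p. In monocytes 7 of 40 rose, against 2.91% of all genes, led by the nucleolar Gnl3 (0.70, adjusted p = 0.0023), the polymerase I subunit Polr1b (1.32, adjusted p = 0.0066) and the maturation factor Nob1 (0.63, adjusted p = 0.014). The knockout monocytes held more of cluster 10, the one led by cell division genes, and more granulocyte progenitor marker UMIs, as given above, and the part of either in these calls was not tested. In dendritic cells 7 of 39 fell, against 4.75% of all genes, led by the pseudouridylation factors Nhp2 (-0.64, adjusted p = 0.0016) and Gar1 (-0.69, adjusted p = 0.0047) and by Nop16 (-0.94, adjusted p = 0.0017), while the members' median there was -0.03. The dendritic class also differed in makeup: cluster 11 held 33.7% ± 0.76 of it in knockout and 28.1% ± 2.61 in wild type samples (SD, n = 3 each). Its summed basophil/mast cell markers were at 239.5 to 359 against 389.8 to 639 CPM, T/NK markers at 188 to 200.1 against 280.5 to 296 CPM, and B cell markers at 182.0 to 213 against 147 to 181.6 CPM, each without overlap. Monocyte markers summed to 6604 to 12676 CPM in knockout and 7117 to 8854 CPM in wild type samples, overlapping. Cluster 6 of this class raised 6 of 13 dendritic markers and had Fn1 and Lyz2 among its leading genes. The part of these in the calls was not tested.
Of 15 genes of Myc or mTOR control, 2 fell over all cells, against 7.2% of all genes. Ddit4, an inhibitor of mTOR signalling, was at 8.01 to 8.78 CPM in knockout and 14.4 to 25.1 CPM in wild type samples (-1.24, SE 0.17, edgeR adjusted p = 0.0017). Mxd1, an antagonist of Myc, was at 9.37 to 9.91 and 13.5 to 15.2 CPM (-0.58, SE 0.09, adjusted p = 0.0031). Mxi1 did not pass (0.28, adjusted p = 0.055).
Of 10 tested p53 targets 1 fell over all cells, against 7.2% of all genes. It was the cell cycle inhibitor Cdkn1a, with a mean of 12.5 CPM in wild type and 6.86 CPM in knockout samples (-0.85, SE 0.11, edgeR adjusted p = 0.0015). Trp53inp1 (-0.44) and Sesn2 (-0.57) did not pass. Of 18 Diamond-Blackfan anaemia genes 1 fell over all cells, Rpl35, against 7.2% of all genes. Rps27 and Rps29 came next, at -0.31 and -0.20.
Of 78 mitochondrial ribosomal proteins 3 fell over all cells, against 7.2% of all genes: Mrpl53 (-2.28, at 1.13 CPM in wild type), Mrpl52 (-0.37) and Mrpl33 (-0.31). Of 77 tested, 8 fell in dendritic cells, against 4.75% of all genes, and 4 in early erythroid cells, against 3.04%, and none rose in either. None of 13 mitochondrially encoded genes passed (mt-Atp8 0.32, mt-Nd4l 0.14, mt-Co1 -0.10), nor did the ribosomal proteins outside the name pattern Fau (-0.12) and Rack1 (0.11) or any of 3 snoRNA host genes (Epb41l4aos -0.15, Snhg6 0.08, Snhg12 -0.06). Rps2-ps6, at 1.44 CPM in wild type samples, fell by 1.14 on the log2 scale, the sole pseudogene column of 12 that passed.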

How the data were processed

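For each library the authors deposited raw UMI counts by cell and gene, without normalization. Aligner, counter and genome build were not given in the sources used here. Cluster numbers in the deposited tables were not used. A gene missing from a table was set to 0 there; 13876 of 18011 symbols were in every table, and 17438 matched GENCODE M21, which gave coordinates and transcript lengths.

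Cells below 500 genes or above 20% mitochondrial counts were removed, and the highest simulated-doublet scores were removed at 0.8% per 1000 cells. Cells were clustered from 2000 variable genes without the members (with members allowed, 1 was variable), 30 principal components, 15 neighbours and Leiden resolution 1.0. Clusters took a class name from markers raised 2-fold or more and at 20 CPM or more (at least 3 markers and 1 in 3 of the list). Clusters 5 and 16 stayed unnamed. Cluster 16, led by Gata3, was set apart after the data were seen; it held 1.81% to 2.31% of knockout and 0.845% to 4.44% of wild type cells.

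Counts were summed per sample and class and tested with edgeR 4.0.16 (quasi-likelihood, TMM, low-count filter, Benjamini-Hochberg at 0.05). Class differences were tested with limma 3.58.1. Paralogue shares used the exact permutation test over 20 assignments. On simulated counts for all cells the edgeR step recovered 95% of 2-fold and 32% of 1.5-fold changes, and 3.05% of its calls were false. In basophil/mast cells 7.2% of its calls were false. The simulation used randomly drawn genes and a fixed dispersion (spread between samples) of 0.02, so its rates do not describe the members. Software was R 4.3.3, DESeq2 1.42.0, Python 3.11.15, scipy 1.17.1, leidenalg 0.10.2 and matplotlib 3.10.9, with seed 1.

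Named members passed 0.05, did not overlap between genotypes and averaged 10 CPM or more; up to 12 per direction were taken over all cells, by size of change, and 4 per class. A fixed set of members with known roles, the 3 highest and 3 lowest, and up to 3 genes of each related list were added. The members and lists were chosen with earlier results of these data known. The design text counts 3 mice per genotype, and sample numbers follow accession order. Alternatives were DESeq2, RLE factors, library size alone, TMM without members, no low-count filter, the title prefix as covariate, no cell filter, doublets kept, cells with at least 2000 UMIs, other clusterings, other totals, equal class shares and each sample left out.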

Additional observations from a re-analysis of the deposited data

Results flagged for a closer look

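The genotype difference in the members' summed share had opposite signs in different classes, with every knockout sample on 1 side of every wild type sample in each: 3.76 points in basophil/mast cells and 2.99 in monocytes, but -1.54 in HSC/MPP and -2.71 in T/NK cells. Some of these depended on how the class was drawn or weighted. With the same cluster shares in every sample the T/NK groups overlapped at -0.307 points. The monocyte groups overlapped at resolutions 0.5 and 2.0 and in classes from marker scores, where the difference was -1.02 points. The HSC/MPP groups overlapped when every cell was weighted equally (-1.45 points). The difference between the classes in this sum was not tested, and no single member passed the limma test of a class against the others.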

How the results depend on the processing

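In classes drawn from marker scores the monocyte share difference reversed to -1.02 points, and Rps2 (-0.11), Rpl7l1 (-0.17) and Rpl10a (-0.0727) reversed there. Other shares that moved, in points, were 1.37 (mean of per-cell shares) and -0.877 (XA samples alone) over all cells; 3.07 (20 most abundant other genes left out) and 2.10 (same cluster shares) in basophil/mast cells; 1.51 in dendritic and -1.17 in early erythroid cells (resolution 2.0); -1.64 (members among the variable genes) and -1.51 (resolution 2.0) in lymphoid progenitors; 1.30, 0.681 and 1.05 in monocytes (variable members, resolution 0.5 and 2.0); and -3.48 (20 genes left out) and -0.307 (same cluster shares) in T/NK cells. With cells of at least 2000 UMIs the small to large differences were -0.00114 over all cells, 0.00515 in basophil/mast cells and 0.00276 in monocytes.

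The number of members called moved as follows. The prefix covariate gave 1 over all cells, in early erythroid cells and in monocytes, 3 in T/NK cells and 0 in basophil/mast cells, dendritic cells, granulocyte progenitors and megakaryocytes. Library size alone gave 41, 1, 1 and 3 in basophil/mast cells, early erythroid cells, granulocyte progenitors and T/NK cells; the median log2 fold change of all genes was then 0.13 in the first and the last, beside 0.01 and 0.00 with TMM. No low-count filter gave 18 in basophil/mast cells, 24 in T/NK cells, 4 in dendritic, early erythroid and HSC/MPP cells and 2 in megakaryocytes. Cells of at least 2000 UMIs gave 3, 2 and 22 in basophil/mast cells, monocytes and T/NK cells. Marker scores gave 16, 1 and 4 in basophil/mast cells, granulocyte progenitors and monocytes. Variable members gave 5, 1 and 2 in dendritic cells, granulocyte progenitors and monocytes, and 2 in the test between classes. Resolution 0.5 gave 4 and 2, and resolution 2.0 gave 6 and 2, in early erythroid cells and monocytes, with 1 in granulocyte progenitors at 2.0. DESeq2 gave 2 in HSC/MPP and 4 in monocytes, RLE factors 5 and TMM without members 4 in monocytes, and no cell filter 5 in T/NK cells. Among alternatives chosen after seeing the data, same cluster shares gave 1, 3 and 1 in basophil/mast cells, monocytes and T/NK cells. Leaving out KO2 and WT1 gave 1 in early erythroid cells and granulocyte progenitors, 2 in HSC/MPP and megakaryocytes and 5 in monocytes and T/NK cells. Leaving out 1 sample gave 3 to 17 in basophil/mast cells, 1 to 4 in dendritic cells, 1 to 2 in early erythroid cells, granulocyte progenitors and HSC/MPP, 2 to 9 in monocytes and 3 to 24 in T/NK cells. The cause was not tested. Of the other values, 528 summary values kept their side and 103 single-gene calls were lost with the direction kept. No paired analysis was possible because the labels give the genotypes no shared replicate numbers.

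With 3 samples a group only large or even changes are called, and few cells stand behind some clusters. The edgeR and limma p-values set a difference against the spread between these samples, which is estimated partly over all genes.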
